A study of Rattus norvegicus with 12 samples.

Results

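The change of the left ventricle from postnatal day 3 (P3) to postnatal day 7 (P7) was examined in rat pups after abdominal aortic banding surgery (ABS). The comparison used the libraries whose labels give ABS and one of these days, 3 at P3 and 3 at P7, which are 6 of the 12 libraries sequenced. All 6 pups were Sprague-Dawley rats banded at P1, when a suture was tied around the abdominal aorta and a padding needle so that a narrowed lumen remained once the needle was withdrawn. The other 6 libraries came from sham-operated pups of the same days and had no part in the main comparison. They were set beside the ABS values and fitted alone. They also entered the test of the interaction of day and surgery and an alternative fit of all 12 libraries. The study used pups of both sexes and the labels give no sex, litter or surgery date, so these could not be compared. The labels call the material left ventricular myocardiocytes and the methods describe whole left ventricles. Each library was deposited as a separate sample of its group, and p-values below measure the spread between these samples.

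In the first week after birth the rodent left ventricle takes on the pressure load of the systemic circulation while its cardiomyocytes leave the cell cycle. Energy supply moves from glycolysis towards fatty acid oxidation, and fetal isoforms of contractile proteins give way to adult ones. In a whole ventricle, fewer cells of a type and less RNA per cell cannot be told apart. The count files give rat Ensembl identifiers without symbols and no identifier matched the RefSeq gene table used here, so these processes, and the markers of cardiomyocytes and other cell types, could not be looked up by name. Genes are therefore described by identifier for the 4 named genes and by group for the others.

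The P3 libraries did not form a uniform group, and this bears on every result that follows. Total counts were similar, 14867713 to 16139513 at P3 and 14268210 to 16052101 at P7. Genes detected by 1 count or more numbered 15266, 15719 and 17530 in P3 replicates 1, 2 and 3 and 18844, 18948 and 18842 in the P7 replicates. All P7 libraries lay above all P3 libraries (difference of means 2706, exact permutation test, two-sided, p = 0.1, the smallest that 3 against 3 allows), and the difference was 2651 after every library was thinned to the same total. The 10 most abundant genes of the ABS libraries held 25.0%, 20.9% and 19.4% of the counts in the P3 replicates and 17.1%, 18.6% and 15.6% in the P7 replicates. The highest 3 of these shares were thus those of P3, with replicate 3 the nearest to P7. Across 14504 genes, log2 CPM (counts scaled to a total of 1000000 per library) of P3 replicate 3 correlated with the P7 libraries at a Pearson r of 0.959 to 0.961, but with P3 replicates 1 and 2 at only 0.847 and 0.871. P3 replicates 1 and 2 correlated with each other at 0.932, and the P7 libraries at 0.977 to 0.982. By its labels P3 replicate 3 belongs to P3, and the main counts below are given with and without it. The sample identity and RNA quality of this library, and of sham P3 replicate 1, which resembles it, could not be checked, because the labels give no value of either for single libraries. Each P7 against P3 value that includes it is limited by that.

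**Figure D1:**
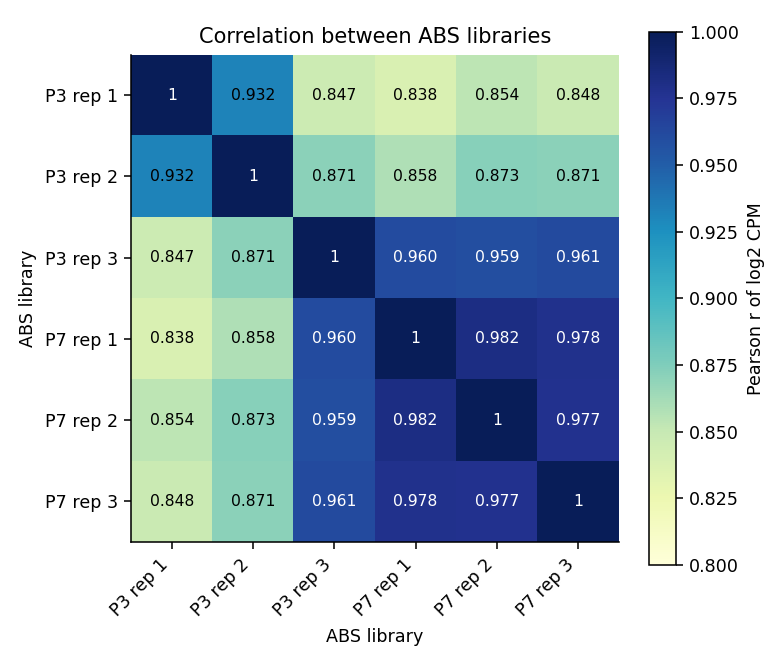
Pearson correlation of log2 CPM (prior count 2) between each pair of the 6 ABS libraries over 14504 genes, with the value printed in each cell and shown by colour. P3 replicate 3 sits at 0.959 to 0.961 with the P7 libraries and at 0.847 and 0.871 with the other P3 libraries.

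The same pattern was found gene by gene among the 9092 well-expressed genes, those that averaged 10 CPM or more over the 6 libraries. P3 replicate 3 was nearer to the mean of P7 than to the mean of the other P3 libraries for 7243 of these genes (79.7%). The corresponding share was 23.0% for P3 replicate 1 and 19.5% for P3 replicate 2. No P7 library was nearer to P3 for more than 20.4% of the genes. The range of the 3 libraries of a day had a median of 1.79-fold at P3 and 1.17-fold at P7, and it was wider at P3 for 8228 genes (90.5%). Over all genes tested, the biological coefficient of variation, the relative spread between libraries beyond counting noise, was 0.58 at P3 and 0.16 at P7. Over the well-expressed genes alone it was 0.46 and 0.125. Without P3 replicate 3 the value over the genes tested was 0.36 at P3, still above that of P7.

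P7 was compared with P3 by edgeR's quasi-likelihood test, two-sided, with p-values adjusted over all 14504 genes by the Benjamini-Hochberg method. At an adjusted p under 0.05, 2 genes were called (0.0138% of those tested), both lower at P7, and 0 genes were called higher. The smallest adjusted p among the other genes was 0.14. At an unadjusted p under 0.05 there were 2571 genes (17.7% of those tested), 904 higher (6.23%) and 1667 lower (11.5%) at P7. Which direction held more genes depended on the fit. In edgeR there were 1277 higher and 846 lower by plain library totals, and 1248 and 920 with the replicate number as a block. With DESeq2 the lower genes were again more, 1390 higher and 1742 lower. DESeq2, the tool named in the methods, called 510 of 15848 genes (3.22%) at the adjusted threshold, 211 higher (1.33%) and 299 lower (1.89%). When P3 replicate 3 was left out, edgeR called 7468 of 14915 genes (50.1%), 3971 higher (26.6%) and 3497 lower (23.4%) at P7. Leaving out any other ABS library gave 0 or 1 call. The count of calls thus depended on whether P3 replicate 3 was among the libraries.

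**Figure D2:**
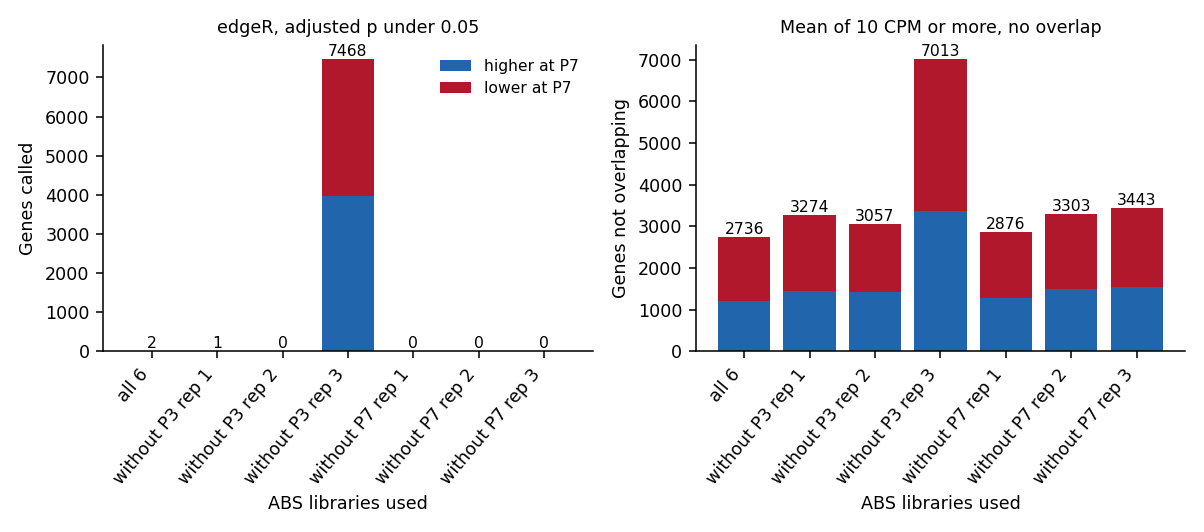
Left, number of genes called by edgeR at an adjusted p under 0.05, and right, number of genes averaging 10 CPM or more whose P3 and P7 libraries do not overlap, with all 6 ABS libraries and with each left out (blue, higher at P7; red, lower at P7). Without P3 replicate 3 the numbers are 7468 and 7013, and with all 6 they are 2 and 2736.

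The largest decrease among the well-expressed genes was that of ENSRNOG00000012067. Its level was 361, 697 and 736 CPM in P3 replicates 1, 2 and 3 and 14.4, 16.4 and 17.6 CPM in the P7 replicates. All P7 libraries were far below all P3 libraries, and P3 replicate 3 was here the highest of its group. The mean was 598 ± 206 CPM (SD, n = 3) at P3 and 16.2 ± 1.59 CPM (SD, n = 3) at P7, which is -5.21 on the log2 scale (edgeR, adjusted p = 0.0267, standard error 0.35). The adjusted p ranged from 6.08e-87 to 0.468 over the alternatives, and the gene was no longer called without P3 replicate 2 or without any of the P7 replicates. The call was also lost with all 12 libraries fitted (adjusted p = 0.0575), with the replicate number as a block (0.11) and by library totals (0.0713), all in edgeR. In these fits the log2 fold change was -5.27 to -5.02. In the sham group the same gene did not separate the days, with 31.9, 601 and 451 CPM at P3 and 562, 185 and 214 CPM at P7. Sham P3 replicate 1 was far below the rest of its group, so the level also varied within a day. The labels give neither the sex nor the identity of the pups, so this variation could not be compared with either. The sham log2 fold change was -0.14 (standard error 0.94). The difference between the ABS and sham changes was -5.05 on the log2 scale (standard error 1.14), with an adjusted p of 1.00 from the interaction of day and surgery over all 12 libraries in edgeR.

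The other gene called was ENSRNOG00000047706, whose mean of 8.36 CPM lies below the level set for well-expressed genes. It had 219, 294 and 196 counts in the P3 replicates and 0, 0 and 1 count in the P7 replicates. These counts correspond to 16.3, 21.4 and 12.4 CPM for P3 against 0, 0 and 0.0605 CPM for P7. The level at P3 was 816 times that at P7, with an exact 95% interval of 146 to 32266 that covers counting error only. In edgeR its adjusted p was 0.0326, and over the alternatives it ranged from 5.59e-14 to 0.468. The gene was called without P3 replicate 3 and was no longer called when any other ABS library was left out. In edgeR it also lost its call with all 12 libraries fitted (adjusted p = 0.137), with the replicate block (0.331) and by library totals (0.0713). It was lower at P7 in each of these fits. It was at or near 0 in some sham libraries of both days, with 0, 15.4 and 12.1 CPM at P3 and 0, 0 and 10.5 CPM at P7. The gene was thus either at about 10 CPM or more, or at most 1 count, in each of the 12 libraries, and the sham libraries of a day were on both sides. The labels give neither the sex nor the identity of the pups, so this pattern could not be compared with either, and the difference between the days is limited by that. The difference between the ABS and sham changes was -7.84 on the log2 scale (standard error 3.27, adjusted p = 1.00 with edgeR).

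With all 6 ABS libraries, and these alone, edgeR called no gene higher at P7, so the genes named next are the well-expressed ones of largest positive log2 fold change whose days did not overlap. ENSRNOG00000046159 was at 0, 7.50 and 4.18 CPM in the P3 replicates and at 33.8, 17.9 and 31.2 CPM in the P7 replicates. The groups did not overlap, and the P3 library with no count was replicate 1. The mean was 3.89 ± 3.76 CPM (SD, n = 3) at P3 and 27.6 ± 8.53 CPM (SD, n = 3) at P7, a difference of 2.82 on the log2 scale that did not pass the threshold (edgeR, adjusted p = 0.276, standard error 1.13). Over the alternatives the adjusted p ranged from 0.0732 to 0.647, so the gene passed the threshold in none of them. The size of the change was uncertain. Its log2 fold change was 2.25 without P3 replicate 1, 3.70 without P3 replicate 2 and 4.64 with limma's quality weights per library. Its sham libraries overlapped, at 14.5, 1.14 and 10.3 CPM at P3 and 10.4, 24.7 and 25.6 CPM at P7.

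ENSRNOG00000007102 was at 10.5, 11.3 and 31.9 CPM in the P3 replicates and at 165, 124 and 63.5 CPM in the P7 replicates. P3 replicate 3 was the highest at P3 and P7 replicate 3 the lowest at P7, with a gap of nearly 2-fold between them. The mean was 17.9 ± 12.1 CPM (SD, n = 3) at P3 and 117 ± 50.9 CPM (SD, n = 3) at P7, a difference of 2.71 on the log2 scale (edgeR, adjusted p = 0.233, standard error 0.56). Without P3 replicate 3 the log2 fold change was 3.43 and the adjusted p 0.000595 with edgeR, and over all alternatives the adjusted p lay between 6.46e-23 and 0.647. The sham libraries of this gene were uniform, at 17.2, 17.1 and 15.9 CPM at P3 and 118, 90.5 and 108 CPM at P7. Fitted alone in edgeR, the sham libraries gave a rise of 2.68 on the log2 scale (adjusted p = 0.0305, standard error 0.18). The ABS and sham changes differed by 0.04 on the log2 scale (standard error 0.61, adjusted p = 1.00 with edgeR).

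**Figure D3:**
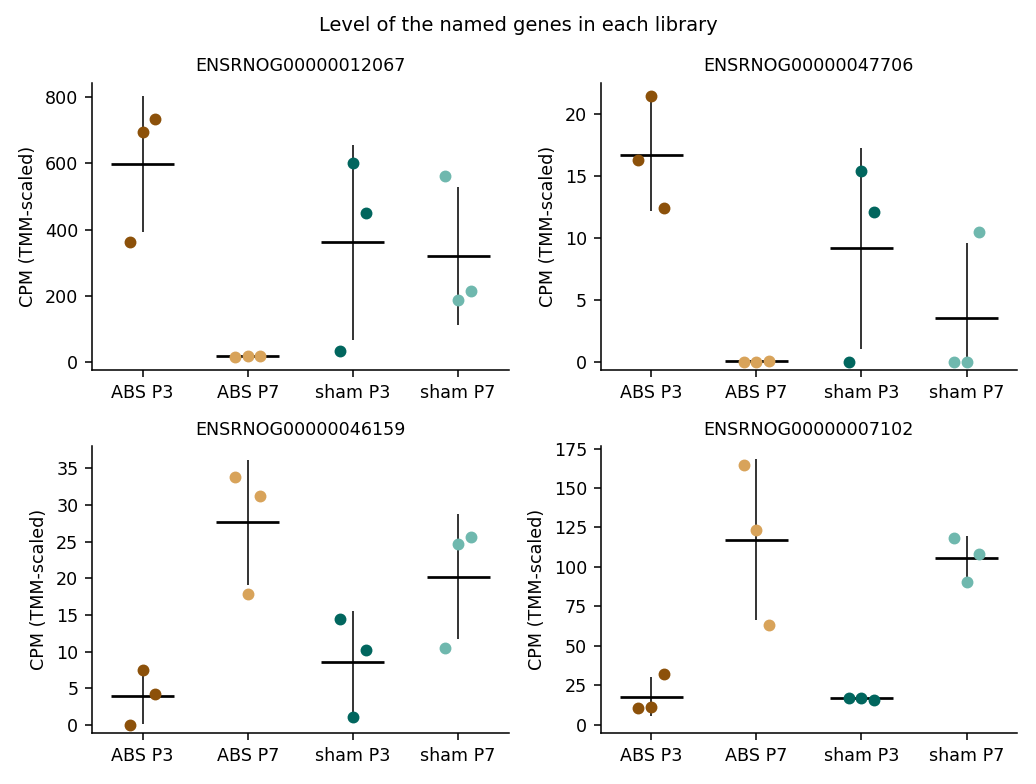
CPM of the 4 named genes in each library (points), with the mean (horizontal line) and SD (vertical line, ended at 0; n = 3) of ABS and sham groups at P3 and P7. The upper 2 genes are lower in all ABS P7 libraries than in all ABS P3 libraries while their sham days overlap, and ENSRNOG00000007102 is higher at P7 after both surgeries.

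By the same rule, the 15 well-expressed genes most increased at P7 had log2 fold changes of 2.10 to 2.82 and the 15 most decreased had -5.21 to -1.94. Their mean levels were 10.6 to 453 CPM (median 21.6) and 10.1 to 1565 CPM (median 58.6). Adjusted p-values from edgeR were 0.199 to 0.384 for the former and 0.0267 to 0.234 for the latter. DESeq2 called 8 of the 11 higher genes it gave an adjusted p (the other 4 had none) and 15 of the 15 lower genes at the adjusted threshold, and edgeR without P3 replicate 3 called 14 and 15 of them. The genes were chosen by this change, so these counts describe them and are not further evidence. The spread among P3 libraries was wide in both sets, with a median range of 5.52-fold for the higher and 2.91-fold for the lower genes, against 1.58-fold and 1.44-fold among P7 libraries. P3 replicate 3 was the P3 library nearest to P7 for 11 of the 15 higher and 14 of the 15 lower genes, against 78.0% and 78.6% of all well-expressed genes without overlap. The gap between the days was wider than the range of the P3 libraries for 2 of the 15 higher and 3 of the 15 lower genes, against 10.2% and 13.3% of all well-expressed genes without overlap. Without P3 replicate 3 it was wider for 11 and 14 of them, and the median range of P3 replicates 1 and 2 was 2.19-fold and 1.15-fold, a range over 2 libraries rather than 3.

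Single genes of these sets, picked after their values were seen, show how this spread enters. The gene that was the ninth in order of increase was at 9.87 and 25.2 CPM in P3 replicates 1 and 2 but at 427 CPM in P3 replicate 3, against 856, 544 and 857 CPM at P7. Its P3 range was thus several times the gap to the lowest P7 library. The gene that was the fifth in order of decrease was at 80.5, 82.0 and 39.3 CPM at P3 and at 10.2, 9.83 and 9.80 CPM at P7. Here all P3 libraries were well above P7, with replicate 3 the lowest of them. The most abundant of the 15 lower genes was at 3291, 3026 and 1132 CPM at P3 and 532, 624 and 785 CPM at P7.

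Over all 9092 well-expressed genes, the libraries of the days did not overlap for 2736 (30.1%), of which 1217 (13.4%) were higher and 1519 (16.7%) lower at P7. Among all 14504 genes tested the share was 28%. The median change was modest, 0.71 on the log2 scale for the higher and 0.65 for the lower genes, and 367 and 318 of them changed by a factor of 2 or more. The split between directions depended on the scaling. CPM here used totals scaled by the trimmed mean of M values (TMM), with factors of 0.836, 0.885 and 1.06 in the P3 replicates and 1.08 to 1.10 at P7. By plain library totals, an alternative chosen after the data were seen, 1771 genes were higher and 940 lower, so the share higher moved from 44.5% to 65.2%. All of the 1217 genes that were higher with TMM remained so by library totals, as did 955 of the 1519 lower ones (62.9%), and 0 genes turned from one direction to the other. The median log2 fold change of all genes moved by 0.22 between these scalings.

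For most of the 2736 genes, the edge of the P3 group was set by replicate 3. It was the P3 library nearest to P7 for 949 of the higher genes (78.0%) and 1194 of the lower ones (78.6%). The gap between the days had a median of 0.14 on the log2 scale for the higher genes, against a median P3 range of 0.80 and a P7 range of 0.21. For the lower genes the gap was 0.16, the P3 range 0.58 and the P7 range 0.18. The gap exceeded the range of the P3 libraries for 326 genes (11.9%), 124 higher and 202 lower. These are the genes whose change is larger than the P3 spread by that measure, and 32 of the higher and 38 of the lower ones also changed by a factor of 2 or more. Without P3 replicate 3, the gap exceeded the range of P3 replicates 1 and 2 for 2444 of 3364 higher genes (72.7%) and 2789 of 3649 lower ones (76.4%). The median gap was then 0.61 for the higher and 0.50 for the lower genes on the log2 scale. The median range of P3 replicates 1 and 2 was 0.27 and 0.17 for these genes. With all 6 libraries, the gap exceeded the P7 range far more often than the P3 range, for 490 of the higher genes (40.3%) and 656 of the lower ones (43.2%). Of the 2736 genes, 2248 (82.2%) were called by edgeR without P3 replicate 3, against 50.1% of all genes tested. DESeq2 with all 6 libraries called 106 of the higher (8.71%) and 226 of the lower genes (14.9%), against 1.33% and 1.89% of all genes tested. The 2736 genes all average 10 CPM or more, while the genes tested include weaker ones, so these shares are not over like genes. The 2736 genes were also chosen on the same libraries, so the shares describe them and are no further evidence.

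The genes that edgeR called without P3 replicate 3 were then read in that library, which had no part in the call. Of these, 7348 were also among the genes tested with all 6 libraries. On the line from the mean of P3 replicates 1 and 2 (0%) to the mean of P7 (100%), P3 replicate 3 lay at a median of 97.6% for the 3885 genes higher at P7, with quartiles of 78.7% and 114%. For the 3463 lower genes the median was 93.5%, with quartiles of 68.2% and 121%. It was nearer to P7 for 3489 of the higher genes (89.8%) and 2998 of the lower ones (86.6%). It was nearer to P3 replicates 1 and 2 for the remaining 396 and 465. P3 replicates 1 and 2 thus differed from all 4 other ABS libraries in most of these genes, and the call made without replicate 3 rests on 2 libraries at P3.

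**Figure D4:**
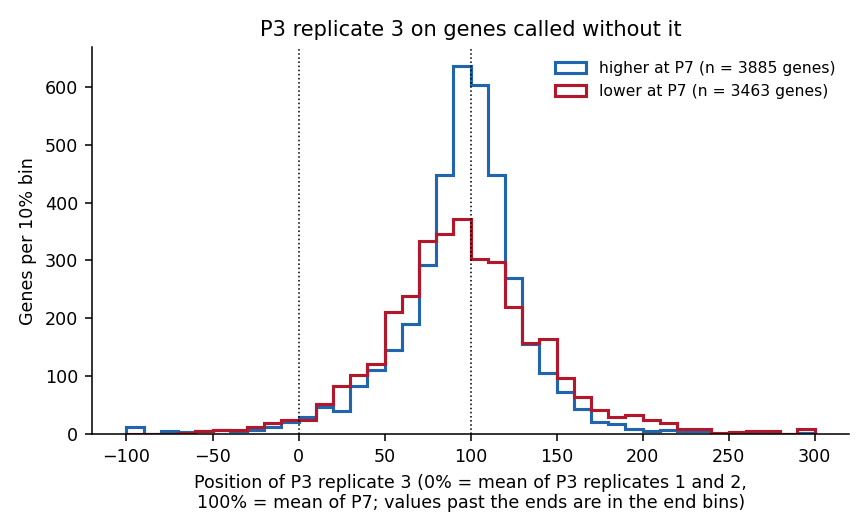
Number of genes (y axis, per 10% bin) by the position of P3 replicate 3 between the mean of P3 replicates 1 and 2 (0%) and the mean of P7 (100%), for genes that edgeR called without that library (blue, higher at P7; red, lower). The medians are 97.6% and 93.5%, close to P7.

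The shares of genes higher and lower without overlap also differed with the level of expression, and the differences between levels were not tested. Among the 77 genes averaging 1000 CPM or more, 24 (31.2%) were lower at P7 in all libraries and 6 (7.79%) higher. Of the 623 genes from 200 to 1000 CPM, 141 (22.6%) were lower and 84 (13.5%) higher. For the 5649 genes from 10 to 50 CPM the shares were 15.5% and 12.6%. Below 10 CPM the order was the other way, with 708 higher and 435 lower among 4625 genes of 1 to 10 CPM. By library totals, the genes of at least 1000 CPM were still more often lower, 22 against 8 of 78, but those from 200 to 1000 CPM were more often higher, 120 against 91. The median range of the P3 libraries was 0.88 on the log2 scale both from 10 to 50 CPM and at 1000 CPM or more, so the P3 spread was not limited to weakly expressed genes. In P7 libraries it was 0.25 and 0.22 at these levels. Without P3 replicate 3, 60 of 80 genes of at least 1000 CPM were lower and 12 higher, and 350 of 611 genes from 200 to 1000 CPM were lower and 177 higher.

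**Figure D5:**
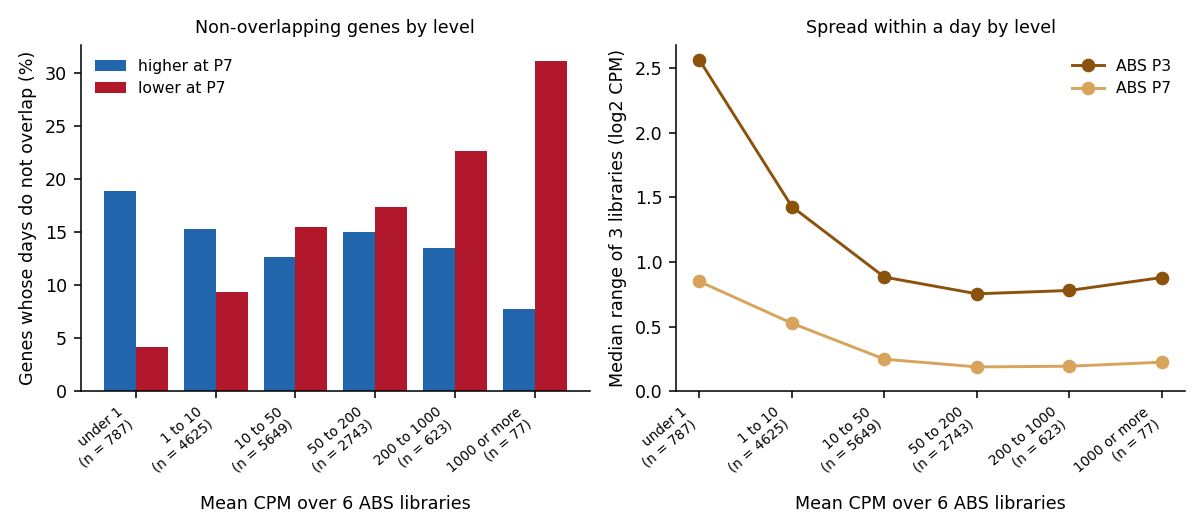
Left, percent of genes whose P3 and P7 libraries do not overlap, by mean CPM over the 6 ABS libraries, and right, median range of the 3 libraries of a day in log2 CPM. With TMM scaling the share lower at P7 rises to 31.2% at 1000 CPM or more, while by library totals the genes from 200 to 1000 CPM are more often higher, and the P3 range lies above the P7 range in every class.

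Genes without any count were also unevenly spread among the P3 libraries. Of 13884 rows with at least 10 counts in each P7 library, 573 had no count in P3 replicate 1 and 433 none in P3 replicate 2, but only 19 none in P3 replicate 3. Only 4 of them had no count in all P3 libraries. In the other direction, of 12517 rows with at least 10 counts in each P3 library, 2, 4 and 4 had no count in P7 replicates 1, 2 and 3 and 0 had none in all of them. Transcripts seen at P7 and missing at P3 were thus mostly missing from P3 replicates 1 and 2. The lower number of detected genes in these libraries moves with their difference from P7, and its part in the result was not tested.

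The question of whether banded hearts changed from P3 to P7 otherwise than sham hearts was tested by the interaction of day and surgery in a fit of all 12 libraries. With edgeR's quasi-likelihood test 0 of the 15236 genes passed the adjusted threshold, 176 (1.16%) had an unadjusted p under 0.05, and DESeq2 called 5 at the adjusted threshold. The smallest adjusted p with edgeR was 1.00. The share at the unadjusted threshold was below that expected if no gene differed, so the edgeR test was conservative here. Its 0 calls therefore do not show that banded and sham hearts changed alike. Among the 9092 well-expressed genes, the sham days did not overlap for 1348 higher (14.8%) and 1718 lower (18.9%) genes. Of the 1217 genes higher in ABS, 666 were among the sham genes of the same direction, 54.7% of the ABS and 49.4% of the sham list. Of the 1519 lower ones, 855 were, 56.3% of the ABS and 49.8% of the sham list. Only 2 of the higher and 1 of the lower ABS genes were separated in the opposite direction in sham. As a difference of mean log2 CPM, a measure other than the fitted fold change used above, the ABS genes had a median of 0.76 and -0.62 in the ABS libraries they were chosen in, and of 0.61 and -0.51 in the sham libraries. Without ABS P3 replicate 3 the lists were longer, and 35.6% of the 3364 higher and 41.0% of the lower ABS genes were separated in the same direction in sham.

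The uneven P3 libraries were not particular to ABS. Log2 CPM of ABS P3 replicate 3 correlated at 0.959 with sham P3 replicate 1 and at 0.960 to 0.966 with the sham P7 libraries, but at 0.842 with sham P3 replicate 2. ABS P3 replicates 1 and 2 correlated at 0.931 and 0.936 with sham P3 replicate 2 and at 0.848 and 0.869 with sham P3 replicate 1. Sham P3 replicate 3 lay between, at 0.929, 0.940 and 0.929 with ABS P3 replicates 1, 2 and 3. Libraries of both surgeries thus stood on both sides of this difference at P3, and the overlap of the ABS and sham lists cannot be told apart from it.

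Of the 326 genes with a gap wider than the P3 range, 318 had Ensembl identifiers, 119 of them higher and 199 lower at P7. Their median change was 0.64 on the log2 scale for the higher genes, with the largest at 2.37, and 0.58 for the lower genes, with the largest being the fall of ENSRNOG00000012067. Their median level was 57.8 and 42.8 CPM. In the sham libraries the days did not overlap in the same direction for 70 of the higher genes (58.8%) and 128 of the lower ones (64.3%). The shares were 54.7% and 56.3% over all ABS genes without overlap and 14.8% and 18.9% over all well-expressed genes. The genes with the wide gap are thus close to the other ABS genes without overlap in this respect, and the difference was not tested.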

How the data were processed

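The authors deposited raw read counts for each gene in 1 file per library, with no normalization. By the methods, clean reads were counted with featureCounts. The submitters' processing notes name HISAT2 2.0.5 and the mouse builds GRCm38 and mm10, while the identifiers are rat Ensembl ones, so the build is uncertain. The strand setting is not given in the sources used here, so counts of genes that overlap, lie antisense or have close copies are uncertain. Counts of the 6 ABS libraries were fitted with edgeR 4.0.16 (R 4.3.3): TMM, filterByExpr, robust quasi-likelihood F test. Standard errors given with edgeR values are the absolute log2 fold change divided by the square root of the F statistic. Log2 CPM used a prior count of 2. Sham CPM were put on the same scale. The test was also run on simulated counts that had the same spread at both days. They did not hold the uneven P3 libraries of these data, so that run does not show how the test behaves with them. Numbered rows outside the Ensembl genes were tested but not named, 866 of the 14504.

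Alternatives were DESeq2 1.42.0, limma 3.58.1 voom weights, other scalings and filters, thinning, the replicate block and leaving out each library. The genes named are those called by edgeR and then the largest well-expressed changes without overlap. At most 2 identifiers were named in each direction, because no table used here paired identifiers with symbols. Pathway and marker lists were therefore not tested here. The comparison, rule and lists were chosen with earlier results of these data known.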

Additional observations from a re-analysis of the deposited data

How the results depend on the processing

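At the adjusted threshold, the 2 calls became 510 with DESeq2, 14 with all 12 libraries fitted (12 higher and 2 lower, with 0 of the original 2 among them), 6791 with limma's quality weights per library, 0 by library totals and 7714 with DESeq2 without P3 replicate 3, the last 2 chosen after the data were seen. Leaving out each library in turn gave 0 to 7468. The weight limma gave P3 replicate 3 was 0.098, against 0.62 and 0.97 for the other P3 and 1.497 to 3.52 for the P7 libraries. With 1 weight per day, 3 genes were called. At the unadjusted threshold, 7827 genes passed with weights per library and 8704 with DESeq2 without P3 replicate 3, and 982 to 8413 with a library left out. That number was 1661 and 1404 without P3 replicates 1 and 2, and 982 and 1140 without P7 replicates 1 and 2, against 1343 without P7 replicate 3. At the unadjusted threshold, library totals gave 1277 higher and 846 lower genes, DESeq2 1390 and 1742, and leaving the 10 most abundant genes out of the totals 1036 and 1136. Without overlap there were 1144 genes of at least 50 CPM, and 2876 to 7013 with a library left out. With the 10 most abundant genes out of the totals, 1488 of these were higher and 1278 lower. The coefficient of variation at P3 was 0.358 to 0.65 with a library left out, lowest without P3 replicate 3. The interaction gave 5 calls with DESeq2 and 1 with quality weights, and 0 with any library left out. The named genes kept their direction in every alternative. The cause of these changes was not tested.

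P3 and P7 libraries of the same number came from different pups, and their deviations correlated at -0.10, 0.05 and -0.03, so the numbers do not pair them. A fit with the replicate block gave 0 genes at the adjusted and 2168 at the unadjusted threshold, 1248 higher and 920 lower, and the interaction gave 0. P3 replicate 1 correlated best with P7 replicate 2 (0.11) and P3 replicate 3 with P7 replicate 1 (0.16). Only P3 replicate 2 correlated best with its own number, at 0.055 against 0.052 with P7 replicate 3. The alternative without mitochondrial and hemoglobin genes was not run, as neither could be matched by symbol. Depth was similar in all libraries, and with thinning to 14268210 counts 2 genes were called.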
